A study of Danio rerio with 8 samples.

Results

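Glucuronosyltransferases (ugt genes), cytosolic sulfotransferases (sult genes) and glutathione transferases (gst genes) were compared between zebrafish larvae with paralysed motile cilia and their siblings. Members were all genes whose symbol begins with ugt, sult or gst followed by a digit or by a letter and a digit, which gave 57 of the 20409 genes in the table, with 32 ugt, 16 sult and 9 gst genes. The smh mutants (genotype -/-) lack working ccdc103, whose protein helps dock the dynein motors that bend motile cilia, and were picked at 4 days post fertilization by a tail that curls down. The sibling controls were an untreated mixture of wild-type and +/- larvae of the same age, and the mutants were untreated as well. Each of the 4 clutches gave 1 mutant and 1 control library, each of whole larvae with 30 larvae pooled, so that 4 mutant and 4 control libraries were compared. The series asked how cilia paralysis changes gene expression.

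Conjugation enzymes attach a polar group to a small molecule so that it can be pumped out of the cell and excreted. Ugt enzymes sit in the endoplasmic reticulum and transfer glucuronic acid from UDP-glucuronic acid. Sult enzymes of the cytosol transfer sulfate from the donor PAPS to phenols, steroids and amines, and gst enzymes join the tripeptide glutathione to electrophiles. In vertebrates these enzymes handle bilirubin, hormones, bile acids, drugs and oxidised lipids, and they are best known from the liver and the lining of the intestine.

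Values are log2 CPM (reads per gene scaled to a common library total), an inferred unit, already made equal in distribution between libraries by the authors. Totals were 997999 to 998006 CPM per library, and the sequencing depth is unknown. CPM values are not corrected for transcript length, so levels are compared between libraries and not between genes. ccdc103 itself had 0.55, 0.33, 0.33 and 1.00 log2 CPM in the mutants of clutches 1 to 4, against 0.64, 1.00, 0.67 and 0.40 log2 CPM in the controls (limma adjusted p = 1), so its level did not separate the genotypes. Without a clutch term, 15 of 20154 tested genes were called at an adjusted p under 0.05, and with clutch as a block 472 were called, 191 higher and 281 lower in mutants.

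Conjugation enzyme genes were, where they changed, lower in mutants, and this was seen within clutches. Of 56 tested members, 7 fell and 0 rose when clutch was taken as a block (limma, adjusted p under 0.05 over all tested genes), beside 1.39% of all tested genes called lower and 0.948% called higher. The 7 were ugt1a7, ugt5a2, ugt5b3 and ugt1a1, sult1st2 and sult6b1, and gstt1b, with falls of 1.24-fold to 1.76-fold, and they make up 12.5% of the members tested. Without the clutch term none of the 56 was called, beside 0.0744% of all tested genes. At an unadjusted limma p under 0.05 that fit gave 5 members lower and 0 higher, beside 1.48% and 1.94% of all tested genes. Of the 56, 44 had a mean difference below 0 and 21 were lower in mutants in 4 of 4 clutches, beside 48.9% and 10.9% of all tested genes, and 2 were higher in 4 of 4 clutches, beside 11.0%. At an unadjusted p under 0.05 in limma with the block, 23 members were lower and 2 higher, beside 6.89% and 6.64% of all tested genes. The median log2 fold change over the 56 members was -0.20, against 0.00 over all tested genes.

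The 3 families are set side by side by their counts and medians. Among the 32 ugt genes the median log2 fold change was -0.21 (range -0.77 to 0.27), with 4 members falling, 26 below 0 and 11 lower in 4 of 4 clutches. Among the 15 tested sult genes the median was -0.14 (range -0.81 to 0.23), with 2 falling, 10 below 0 and 4 lower in 4 of 4 clutches. Among the 9 gst genes the median was -0.12 (range -0.42 to 0.19), with 1 falling, 8 below 0 and 6 lower in 4 of 4 clutches. Among members that averaged 5 CPM or more, the medians were -0.21 for 25 ugt, -0.14 for 11 sult and -0.11 for 8 gst genes. These are descriptions, and a difference between the families was not tested.

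**Figure D1:**
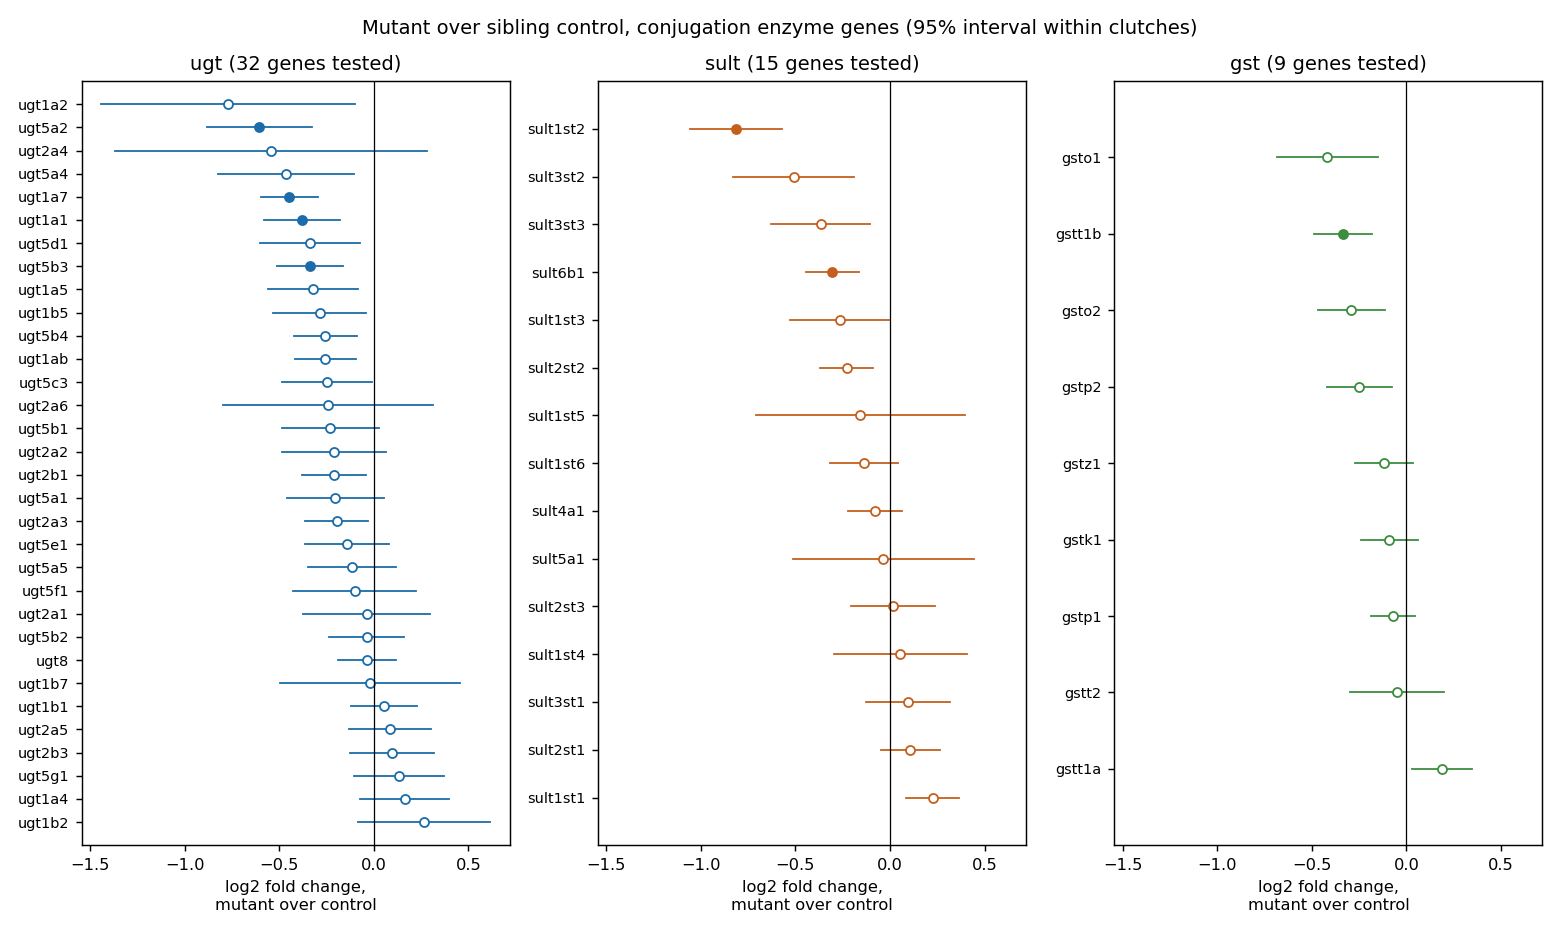
Log2 fold change of mutant over sibling control (x axis) for each of the 56 tested members, 1 panel per family, with 95% confidence intervals from the fit with clutch as a block; filled points are the 7 members called in that fit. The called points all lie below 0, at -0.30 to -0.81, and no member above 0 is filled.

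Summed over a family, the CPM of the ugt genes was 320.4, 416.1, 399.5 and 326.5 in the mutants of clutches 1 to 4, against 407.7, 469.8, 422.8 and 403.2 in the controls. The ugt sum was lower in the mutant of every clutch, with means of 366 ± 49.2 CPM in mutants and 426 ± 30.5 CPM in controls (SD, n = 4 each). The sult genes summed to 222.3, 277.5, 265.4 and 221.1 CPM in mutants, against 253.1, 281.4, 285.1 and 254.8 CPM in controls. The gst genes summed to 501.8, 482.2, 542.0 and 472.4 CPM in mutants, against 548.0, 483.7, 553.3 and 530.3 CPM in controls. The libraries of the 2 groups overlapped in all 3 sums. A single gene, gstp1, took 66.5% to 69.9% of the summed CPM of these 9 gst genes in each library. Glutathione transferase genes outside the naming rule, such as gsta.1, are not in that sum. In the ugt sum ugt1a7 took 19.3% to 25.4%, and in the sult sum sult6b1 took 15.2% to 23.5%.

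In the ugt family, ugt1a7 (gene ID 100384891) had 6.004, 6.42, 6.27 and 6.01 log2 CPM in the mutants of clutches 1 to 4, against 6.69, 6.82, 6.49 and 6.48 log2 CPM in the controls. All 4 mutant libraries lay below all 4 control libraries. Its mean was 6.18 ± 0.20 in mutants and 6.62 ± 0.17 in controls (SD, n = 4 each), a 1.36-fold fall (log2 fold change -0.45, SE 0.07 with the block, limma adjusted p = 0.00198, and 0.619 without it). Of the 56 members, 2 had groups that did not overlap, both with mutants lower, beside 1.05% of all tested genes with mutants all lower and 1.87% with mutants all higher. The other was ugt5b4, named here after its values were seen, with 4.28, 4.56, 4.49 and 4.16 log2 CPM in mutants against 4.62, 4.58, 4.72 and 4.60 log2 CPM in controls. It was not called with the block (log2 fold change -0.26, limma adjusted p = 0.119).

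ugt1a1 (gene ID 641488), named like the mammalian enzyme that conjugates bilirubin, had 3.05, 4.17, 4.39 and 3.21 log2 CPM in mutants, against 3.55, 4.36, 4.55 and 3.89 log2 CPM in controls. Clutches 2 and 3 were high and clutches 1 and 4 low in both genotypes, so the groups overlapped although each mutant was below its clutch mate. The fall was 1.30-fold (log2 fold change -0.38, SE 0.09 with the block, limma adjusted p = 0.0423, and 1 without it).

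ugt5a2 (gene ID 767756) belongs to the ugt5 group, which fish have and mammals lack. Its values were 1.55, 2.51, 2.39 and 1.94 log2 CPM in mutants, against 2.39, 2.74, 2.86 and 2.82 log2 CPM in controls. The mutants of clutches 1 and 4 stood lowest. The fall was 1.52-fold (log2 fold change -0.60, SE 0.13 with the block, limma adjusted p = 0.0192, and 1 without it).

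ugt5b3 (gene ID 100415792), of the same group, had 3.92, 4.99, 4.74 and 4.24 log2 CPM in mutants, against 4.45, 5.15, 4.88 and 4.75 log2 CPM in controls. The differences were larger in clutches 1 and 4 than in clutches 2 and 3, and the groups overlapped. The fall was 1.26-fold (log2 fold change -0.34, SE 0.08 with the block, limma adjusted p = 0.0356, and 1 without it).

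The largest differences among the other ugt genes with a mean of at least 1 log2 CPM were those of ugt2a4 and ugt5a4, neither of them called. ugt2a4 had 2.09, 3.36, 2.94 and 1.64 log2 CPM in mutants, against 3.15, 3.27, 2.81 and 2.98 log2 CPM in controls, so that the low values came from the mutants of clutches 1 and 4 and the other clutches went the opposite way (log2 fold change -0.54, 95% confidence interval -1.37 to 0.28 with the block). ugt5a4 had 1.47, 1.85, 1.98 and 1.15 log2 CPM in mutants, against 1.96, 2.34, 1.85 and 2.16 log2 CPM in controls (limma adjusted p = 0.218 with the block). ugt8, which makes the galactolipids of myelin and so is no conjugation enzyme in the sense of detoxification, had 5.19, 4.98, 5.06 and 5.08 log2 CPM in mutants and 5.37, 5.13, 5.07 and 4.88 log2 CPM in controls. Its log2 fold change was -0.03, with a 95% confidence interval of -0.19 to 0.12 with the block.

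By subfamily, the ugt differences lay furthest below 0 in ugt1a (6 genes, median log2 fold change -0.35, 2 called) and ugt5a (4 genes, -0.33, 1 called). The 4 ugt5b genes had a median of -0.24 with 1 called, and the 8 ugt2 genes a median of -0.20 with 0 called (limma with the block, 2 at an unadjusted p under 0.05). The 4 ugt1b genes had a median of 0.02, with 0 called (1 lower at an unadjusted p under 0.05), and the 5 genes ugt5c3, ugt5d1, ugt5e1, ugt5f1 and ugt5g1 a median of -0.14, with 0 called (2 lower at an unadjusted p under 0.05). In the RefSeq annotation of GRCz12tu, a later build than the GRCz11 named for these files, the 6 ugt1a genes follow each other on chromosome 9, the 4 ugt5b genes on chromosome 1, and ugt1b7, ugt1b5, ugt1b2 and ugt1b1 lie close together on chromosome 11. Zebrafish ugt1 genes are known to have their own first exons and common downstream exons, so how reads were divided among the ugt1a genes, and among the ugt1b genes, is uncertain. ugt2a1, ugt2a2, ugt2a3 and ugt2a4 follow each other on chromosome 5. Whether ugt2 genes share exons was not examined, so the same caution holds for their single values, those of ugt2a4 included.

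Among the sulfotransferases, sult1st2 (gene ID 791732), of the SULT1 group that acts on phenols, showed the largest difference of all 56 tested members. It had 1.92, 3.46, 4.09 and 2.11 log2 CPM in mutants, against 2.94, 4.04, 4.58 and 3.29 log2 CPM in controls. Each mutant was below its clutch mate, but the controls alone spanned 1.65 log2 units, from clutch 1 at the low end to clutch 3 at the high end. The means were 2.90 ± 1.05 log2 CPM in mutants and 3.71 ± 0.74 log2 CPM in controls (SD, n = 4 each), a 1.76-fold fall (log2 fold change -0.81, SE 0.11 with the block, limma adjusted p = 0.000823, and 1 without it).

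sult6b1 (gene ID 322462) had 5.08, 5.77, 5.51 and 5.35 log2 CPM in mutants, against 5.29, 6.05, 5.74 and 5.85 log2 CPM in controls. The mutant was lower in every clutch, by 0.21 to 0.50 log2 units, and the groups overlapped. The fall was 1.24-fold (log2 fold change -0.30, SE 0.07 with the block, limma adjusted p = 0.0179, and 1 without it).

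Other sult genes were not called. sult3st2 and sult3st3, near neighbours on chromosome 22 of GRCz12tu, had log2 fold changes of -0.51 and -0.37 (limma adjusted p = 0.103 and 0.166 with the block). sult3st2 had 0.85, 1.79, 2.29 and 1.15 log2 CPM in mutants, against 1.48, 1.98, 2.72 and 1.94 log2 CPM in controls, lower in 4 of 4 clutches. sult2st2, of the group that sulfates steroids, had 4.81, 5.27, 5.17 and 4.90 log2 CPM in mutants, against 5.10, 5.34, 5.47 and 5.16 log2 CPM in controls, also lower in 4 of 4 clutches (log2 fold change -0.23, limma adjusted p = 0.0928 with the block).

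The sult1 genes on chromosome 8 did not share a direction. In GRCz12tu sult1st1 is the immediate neighbour of sult1st2, and it was named here after its values were seen. It had 5.21, 5.24, 4.95 and 5.01 log2 CPM in mutants, against 5.00, 4.91, 4.70 and 4.89 log2 CPM in controls, above its clutch mate in 4 of 4 clutches (log2 fold change 0.23, limma adjusted p = 0.101 with the block). sult1st3, the next member beyond sult1st2 and likewise named after its values were seen, had 1.81, 2.95, 3.43 and 1.90 log2 CPM in mutants, against 2.00, 2.83, 3.78 and 2.55 log2 CPM in controls, again low in clutch 1 and high in clutch 3 in both genotypes. sult1st7, from the same stretch, was the 1 member too low to be tested, at -0.82 to 0.15 log2 CPM in mutants and -0.91 to 0.34 log2 CPM in controls. sult4a1, a sulfotransferase of the brain, had 5.31, 5.06, 5.19 and 5.12 log2 CPM in mutants, against 5.52, 5.10, 5.09 and 5.29 log2 CPM in controls. Its log2 fold change was -0.08, with a 95% confidence interval of -0.22 to 0.06 with the block.

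Among the glutathione transferases, gstt1b (gene ID 393556), of the theta class, had 4.20, 4.17, 4.31 and 3.94 log2 CPM in mutants, against 4.54, 4.43, 4.71 and 4.26 log2 CPM in controls. The differences were alike in the 4 clutches, at -0.26 to -0.41 log2 units. The fall was 1.26-fold (log2 fold change -0.33, SE 0.07 with the block, limma adjusted p = 0.0186, and 1 without it). gstt1a, of the same class, was not called, with 5.49, 5.54, 5.72 and 5.39 log2 CPM in mutants and 5.55, 5.18, 5.34 and 5.31 log2 CPM in controls (log2 fold change 0.19, limma adjusted p = 0.266 with the block).

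gstp1, of the pi class and a widely used marker of the oxidative stress response that the transcription factor Nrf2 drives, had 8.45, 8.32, 8.54 and 8.36 log2 CPM in mutants, against 8.55, 8.33, 8.55 and 8.53 log2 CPM in controls. The libraries overlapped, and the log2 fold change was -0.07 with a 95% confidence interval of -0.19 to 0.04 with the block. gstp2, its neighbour in the genome, had 4.61, 5.19, 4.62 and 4.72 log2 CPM in mutants, against 5.04, 5.11, 4.98 and 5.01 log2 CPM in controls (log2 fold change -0.25, limma adjusted p = 0.15 with the block). The mutant of clutch 2 was the one mutant not below its clutch mate, and without clutch 2 gstp2 passed the blocked test (limma adjusted p = 0.0463, against up to 0.422 in its other alternatives).

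The omega class, known for reducing dehydroascorbate, was represented by the adjacent genes gsto1 and gsto2, both lower in 4 of 4 clutches and neither called. gsto1 had 1.81, 1.90, 2.62 and 1.88 log2 CPM in mutants, against 1.95, 2.36, 3.18 and 2.403 log2 CPM in controls (log2 fold change -0.42, limma adjusted p = 0.112 with the block). gsto2 had 3.42, 3.68, 4.05 and 3.41 log2 CPM in mutants, against 3.62, 3.96, 4.29 and 3.86 log2 CPM in controls (log2 fold change -0.29, limma adjusted p = 0.0915 with the block). Clutch 3 was highest in both genotypes for both genes.

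**Figure D2:**
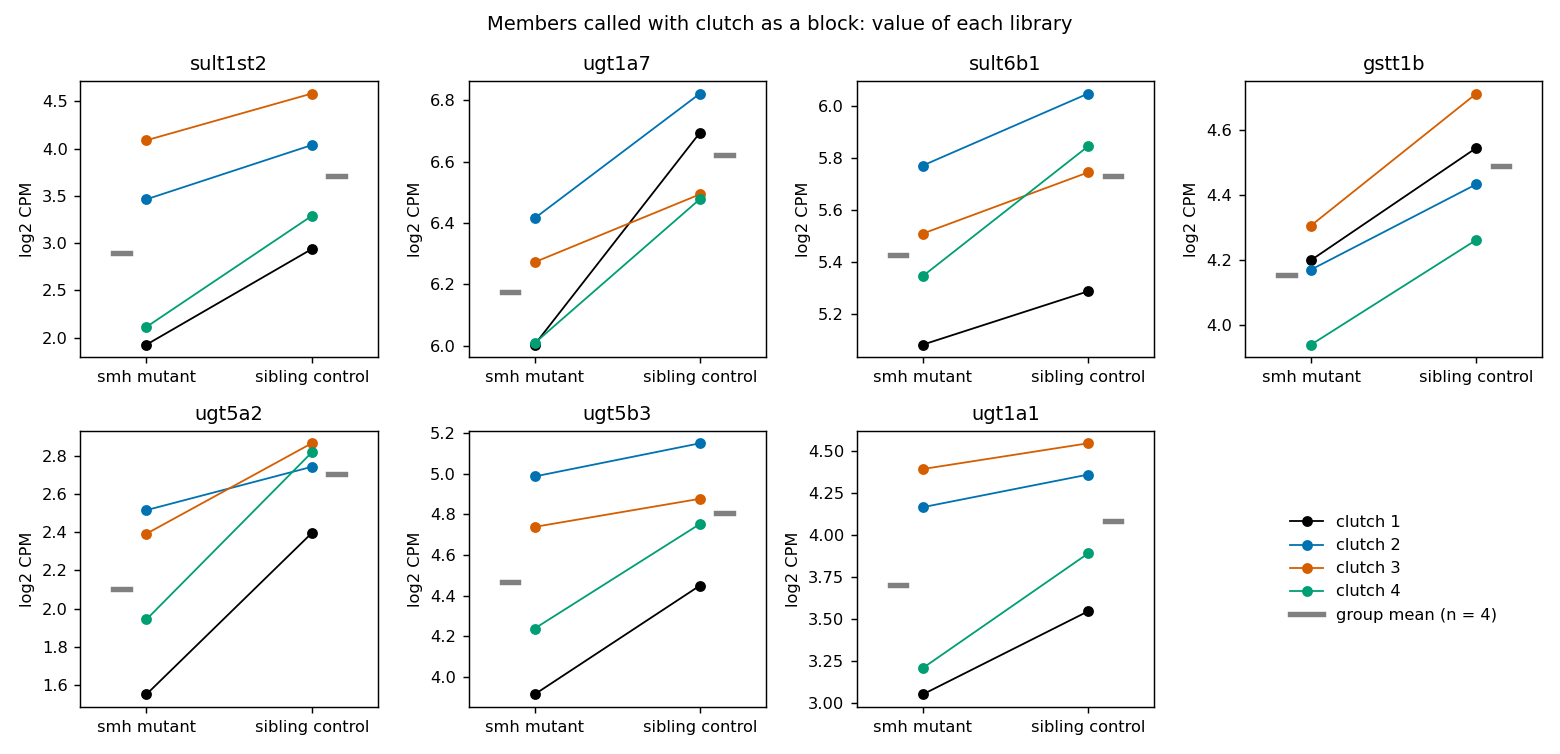
Log2 CPM (y axis, scaled to each gene) of the 7 called members in each library, with mutants on the left, controls on the right, lines joining the libraries of a clutch and grey bars for group means (n = 4). Every line is lower at the mutant end, while clutch levels differ enough that the groups overlap in all but ugt1a7.

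The calls of single members rested on few clutches and on the variance model. With clutch 1 left out the blocked fit called 4 members, all among the 7 (sult1st2, ugt1a7, sult6b1 and gstt1b), and with clutch 4 left out it called only sult1st2 and ugt1a7, beside 2.08% and 0.883% of all tested genes in either direction. Without clutch 2 it called 4, of which 3 were among the 7 (sult1st2, ugt5a2 and ugt1a7), and without clutch 3 it called 6, all of the 7 but gstt1b, beside 1.17% and 2.22%. In limma with neither the trend of variance with level nor robust estimation, 0 members were called with the block (50 genes in the whole table), at limma adjusted p of 0.104 for sult1st2 and 0.152 for ugt1a7. Those 2 kept the call in the 9 other alternatives of the blocked fit, with adjusted p down to 0.000645 and 0.000634. The call of ugt1a1 was also lost with a filter on a mean of 5 CPM and with median-ratio rescaling (limma adjusted p = 0.0548 and 0.0575, with a range of 0.0339 to 0.313 over its alternatives). In the authors' deposited table, 24 genes had an adjusted p under 0.05 and none of them was a member. The lowest unadjusted p of a member in the authors' deposited table was that of gstt1b, at 0.0382. It was the 1 member under 0.05 there, against 5 in the limma fit without the clutch term. For ugt1a7 the unadjusted p was 0.160 in the authors' table and 0.00381 in that limma fit.

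Levels of many members also differed between clutches, in mutants and controls alike. Averaging the 2 genotypes of a clutch, the range over the 4 clutches exceeded the difference between genotypes in 51 of 56 members. This share of 91.1% was no higher than the 94.3% of all tested genes. The range over clutches was above 1 log2 unit in 7 members (12.5%), beside 5.19% of all tested genes: ugt1a1, ugt1a2, ugt2a4, sult1st2, sult1st3, sult3st2 and gsto1. A common pattern in this mean of the 2 genotypes, noticed in these data, was a level below that of clutches 2 and 3 in both clutch 1 and clutch 4. Larger falls of the mutants in clutches 1 and 4 add to it. The same mean was used to count marker genes with this pattern. It was seen in 24 members (42.9%), with 15 ugt, 8 sult and 1 gst gene, beside 17.5% of all tested genes. Of the 7 called members, 6 showed it, the exception being gstt1b. In the controls alone ugt1a7, ugt5a2 and sult6b1 did not show it, so for these genes it was not a trait of both genotypes.

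**Figure D3:**
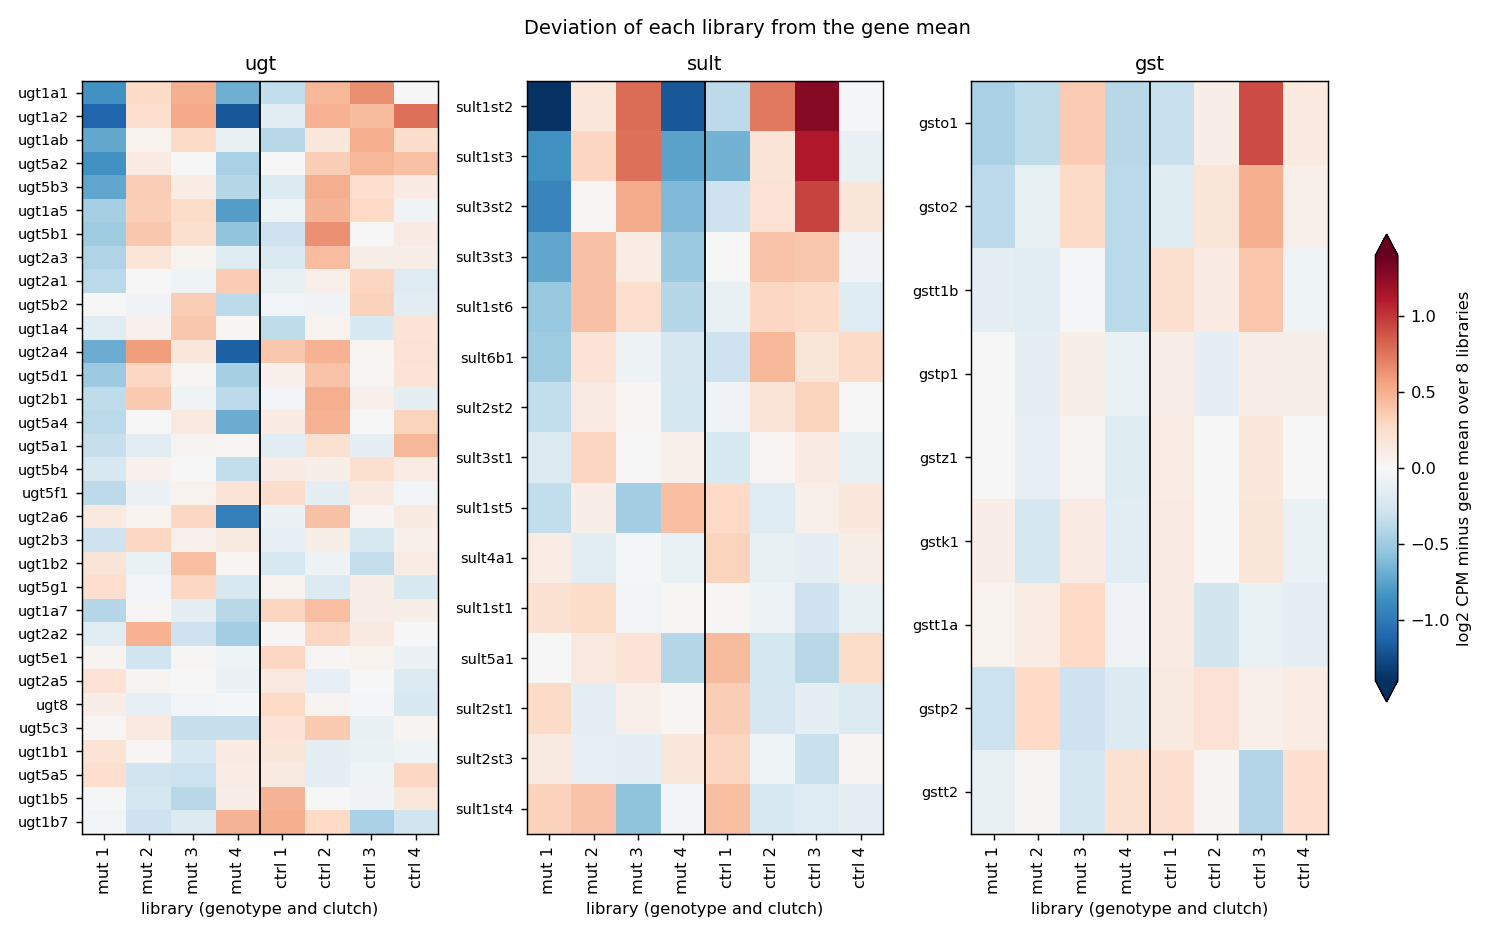
Log2 CPM of each library minus the gene's mean over the 8 libraries (colour) for the 56 tested members, with mutant libraries left and control libraries right of the line; genes are sorted by the level of clutch 3 minus that of clutch 1. In many of the upper ugt and sult rows the mutant libraries of clutches 1 and 4 lie below those of clutches 2 and 3. The controls do so for sult1st2 and ugt1a1, but not for ugt1a2, ugt1ab, ugt5a2 and ugt5b1. For sult1st2 the mutants of clutches 1 to 4 have 1.92, 3.46, 4.09 and 2.11 log2 CPM, and the controls 2.94, 4.04, 4.58 and 3.29.

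Most markers of the intestine and the exocrine pancreas were lower in mutants, as most members were. Of 12 intestine markers 8 fell and 0 rose with the block, beside 1.39% and 0.948% of all tested genes. Without the clutch term 0 were called, with 2 lower and 0 higher at an unadjusted limma p under 0.05. The median log2 fold change was -0.43. At an unadjusted p under 0.05 in limma with the block, 11 were lower and 1 was higher, beside 6.89% and 6.64% of all tested genes. fabp2, a fatty acid binding protein of enterocytes, was 1.31-fold lower, and anpepb, a brush border peptidase, 1.46-fold lower (limma adjusted p = 0.00189 and 0.000106 with the block). Their summed level was 1440 to 2362 CPM in mutants and 1748 to 2657 CPM in controls. Their mean level was 5.60, 6.64, 6.78 and 5.87 log2 CPM in the mutants of clutches 1 to 4, against 6.08, 6.96, 7.07 and 6.51 log2 CPM in the controls, so that clutches 1 and 4 were again low, as in 11 of the 12 markers. Of 13 exocrine pancreas markers 11 fell and 0 rose with the block, beside 1.39% and 0.948% of all tested genes. Without the clutch term 0 of the 13 were called, with 1 lower and 0 higher at an unadjusted limma p under 0.05. Their median was -0.51, and their summed level was 1628 to 3954 CPM in mutants and 2490 to 5006 CPM in controls. Clutches 1 and 4 were low in 12 of these 13, beside 17.5% of all tested genes. The part of these tissues in the differences of the conjugation genes was not tested, and in RNA of whole larvae fewer cells of a type and less RNA per cell cannot be told apart.

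Liver markers did not follow this pattern. Of 11 hepatocyte markers, 0 fell and 1 rose with the block, beside 1.39% and 0.948% of all tested genes. The 1 was cp (ceruloplasmin, 1.24-fold higher, limma adjusted p = 0.0175 with the block). Without the clutch term 0 were called. The median log2 fold change of the 11 markers was 0.04. Their summed level was 4783 to 5051 CPM in mutants and 4222 to 5205 CPM in controls. Of 12 pronephric tubule markers, 4 rose and 0 fell with the block, beside 0.948% and 1.39% of all tested genes. Without the clutch term 1 rose and 0 fell. Their median was 0.17, and their summed level was 355 to 579 CPM in mutants and 321 to 516 CPM in controls. Clutches 1 and 4 lay below clutches 2 and 3 in 7 of these 12 and in 3 of the 11 hepatocyte markers, beside 17.5% of all tested genes. The pronephric list, with a median above 0, held markers low in clutches 1 and 4 as well. The cause of this clutch pattern was not tested. Among 8 epidermal, 8 neuronal, 4 olfactory and 5 lens markers, 0 passed in limma with the block (1 lower and 1 higher, 1 lower, 0 and 0 at an unadjusted p under 0.05), with medians of 0.01, -0.06, -0.06 and 0.10. Of all tested genes, 6.89% were lower and 6.64% higher at that unadjusted p.

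**Figure D4:**
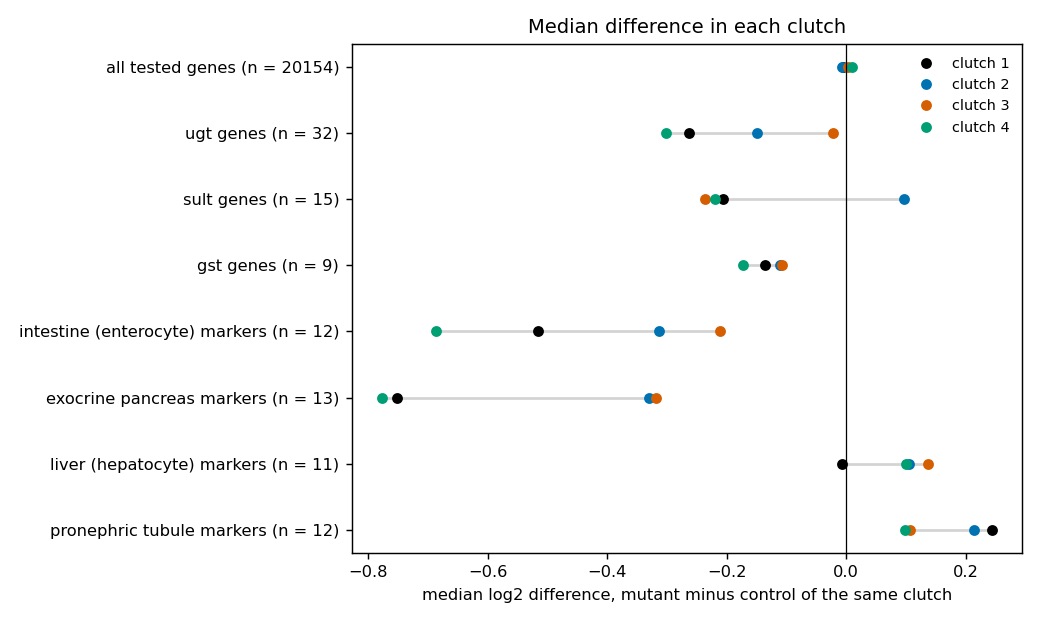
Median log2 difference of mutant minus control within each clutch (x axis, 1 point per clutch) for all tested genes, the 3 families and 4 marker lists. The ugt medians were -0.26, -0.15, -0.02 and -0.30 in clutches 1 to 4, with clutches 1 and 4 furthest below 0, as in the intestine markers (-0.52, -0.31, -0.21 and -0.69).

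Within clutches, the sult medians were -0.21, 0.10, -0.24 and -0.22 in clutches 1 to 4, so that clutch 2 lay above 0. The gst medians were -0.14, -0.11, -0.11 and -0.17, below 0 in each clutch and close together.

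Genes that serve the same reactions were also examined. Of 25 genes that supply the donor molecules or undo the reactions, 1 fell and 1 rose with the block, beside 1.39% and 0.948% of all tested genes. The median log2 fold change was -0.06. In limma with the block, 9 were lower and 3 higher at an unadjusted p under 0.05, beside 6.89% and 6.64% of all tested genes. In 4 of 4 clutches 8 were lower and 5 higher, beside 10.9% and 11.0%. ugdh, which makes UDP-glucuronic acid for the ugt enzymes, had 5.53, 5.87, 5.77 and 5.42 log2 CPM in mutants, against 5.87, 6.09, 5.89 and 5.87 log2 CPM in controls, a 1.22-fold fall (limma adjusted p = 0.0269 with the block, and 1 without it). ggt1b, a gamma-glutamyltransferase gene of the group that cleaves glutathione and its conjugates at the cell surface, had 4.12, 4.62, 4.34 and 4.25 log2 CPM in mutants, against 3.19, 4.04, 3.67 and 3.57 log2 CPM in controls. Every mutant was above every control, and the rise was 1.64-fold (limma adjusted p = 9.46e-05 with the block, and 0.425 without it).

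A list of 14 transporter genes held abc export pumps and also slco1d1 and slco2b1, which are not export pumps. Of the 14, 2 fell and 0 rose with the block, beside 1.39% and 0.948% of all tested genes, and the median was -0.17. In limma with the block, 5 were lower and 1 was higher at an unadjusted p under 0.05, beside 6.89% and 6.64% of all tested genes. In 4 of 4 clutches 6 were lower and 2 higher, beside 10.9% and 11.0% of all tested genes. The export pump genes abcg2a and abcb4 were 1.35-fold and 1.34-fold lower (limma adjusted p = 0.000689 and 0.00132 with the block), each in 4 of 4 clutches. abcg2a had 5.35, 5.27, 6.03 and 5.48 log2 CPM in mutants, against 5.78, 5.63, 6.39 and 6.04 log2 CPM in controls. abcb4 had 4.69, 6.01, 6.01 and 5.12 log2 CPM in mutants, against 5.20, 6.28, 6.40 and 5.64 log2 CPM in controls, with clutches 1 and 4 again low in both genotypes.

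Of 17 further glutathione transferase genes and relatives whose symbols fall outside the naming rule, 2 fell and 0 rose with the block, beside 1.39% and 0.948% of all tested genes. The median was -0.05. In limma with the block, 3 were lower and 1 was higher at an unadjusted p under 0.05, beside 6.89% and 6.64% of all tested genes. In 4 of 4 clutches 4 were lower and 3 higher, beside 10.9% and 11.0%. gsta.1, of the alpha class, had 7.77, 8.40, 8.48 and 7.85 log2 CPM in mutants, against 8.23, 8.55, 8.62 and 8.23 log2 CPM in controls (1.21-fold lower, limma adjusted p = 0.0229 with the block). mgst3b, a microsomal glutathione transferase gene, had 6.97, 7.04, 7.13 and 6.92 log2 CPM in mutants, against 7.36, 7.35, 7.24 and 7.27 log2 CPM in controls (1.22-fold lower, limma adjusted p = 0.0167 with the block). All 4 mutants were below all 4 controls for mgst3b.

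Regulators and other targets of the receptors known to switch on these enzymes gave few calls. Of all tested genes, 1.39% were called lower and 0.948% higher with the block. At an unadjusted p under 0.05 in limma with the block, the shares were 6.89% and 6.64%. Of 16 genes of the Nrf2 and aryl hydrocarbon receptor (AhR) systems, 0 passed in limma with the block (2 lower and 2 higher at an unadjusted p under 0.05), with a median of 0.02. In that list ahr2, the main AhR of zebrafish, had a log2 fold change of 0.09 (limma adjusted p = 0.503 with the block). Of 11 other Nrf2 target genes 0 passed in limma with the block (3 lower and 0 higher at an unadjusted p under 0.05), with a median of -0.06, and the ferritin gene fth1a had a log2 fold change of -0.12. Of 5 cyp1 genes, not all of which AhR is known to induce, cyp1a fell. Its values were 3.91, 5.21, 4.12 and 5.70 log2 CPM in mutants, against 4.56, 5.61, 4.12 and 6.09 log2 CPM in controls. It was 1.28-fold lower (limma adjusted p = 0.0484 with the block) but not lower in clutch 3. The list median was -0.04, with log2 fold changes from -0.36 to 0.41. Of the 5 genes, 1 was lower and 1 higher at an unadjusted p under 0.05 in limma with the block. In 4 of 4 clutches 0 were lower and 1 was higher, beside 10.9% and 11.0% of all tested genes.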

How the data were processed

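RNA of whole larvae was sequenced on a BGI DNBSEQ platform and reads were filtered with SOAPnuke 1.5.2, per the labels' protocols. HISAT2 2.0.4, Bowtie2, RSEM, limma and the build GRCz11 stand in the submitters' processing notes, with no role or order. The authors deposited 1 normalized value per gene and library, whose log2 CPM unit is inferred from the values, and a comparison table with log2 fold changes, p-values and a score that was not used. Counts and depths are not known, so no counting intervals are given. The labels do not say whether larvae or RNA were pooled further, and p-values measure only the spread between these libraries.

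Genes reaching 0 log2 CPM in at least 4 of 8 libraries (20154) were tested with limma 3.58.1 in R 4.3.3, with mean-variance trend, robust estimation and Benjamini-Hochberg adjustment over all of them. No pseudocount was added. The procedure was also run on simulated data with independent normal noise around the blocked fit. That run assumes the blocked model, so it cannot check how the calls depend on the variance settings. The main fit had no clutch term, since the sources state none. Clutch numbers pair the libraries, as the labels state: deviations from group means correlated by 0.72, 0.50, 0.50 and 0.30 within clutches 1 to 4 over all tested genes. Over the tested members these correlations were 0.79, 0.61, 0.67 and 0.16, so the pairing was weak in clutch 4. The blocked fit is given beside the other.

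Members, lists and rules were chosen with earlier results of these data known. Named members were those called in either fit, then per family the 3 with the highest mean log2 CPM and the 3 with the largest change at a mean of at least 1 log2 CPM. From each list up to 4 called genes, or the one with the highest mean log2 CPM, could be named. Members listed for their range over clutches were named after their values were seen. RefSeq genes of GRCz12tu matched 55 of 57 members by gene ID and gave gene order only. ugt2a6 and ugt2b3 were not matched. Alternatives were the clutch block, other filters, rescaling, other variance settings, library weights, and leaving out each library or clutch.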

Additional observations from a re-analysis of the deposited data

Results flagged for a closer look

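In 38 groups of 4 libraries (19 named genes in 2 genotypes), 2 libraries stood far from the other 3 of their group; chance alone flags about 1 in 20 such groups. For gstp1 the control of clutch 2 was low, at 8.33 log2 CPM, with a gap to the next control of 92.4% of the range of the group. For gsto1 the mutant of clutch 3 was high, at 2.62 log2 CPM, with a gap of 88.7% of the range.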

How the results depend on the processing

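Without the clutch block 0 members were called in every alternative run, and with clutch as a replicate block the count was 7, against 472 in place of 15 in the whole table. In the whole table without the block, a filter on a mean of 5 CPM gave 7 calls and array weights 41, and leaving out single libraries or whole clutches gave 0 to 25. With the block, limma without trend and robust estimation gave 0 members and 50 genes. Leaving out clutch 1, 2, 3 or 4 in the blocked fit gave 4, 4, 6 and 2 members and 419, 235, 447 and 178 genes. Leaving out libraries or clutches gave medians of -0.29 to -0.14 for ugt, -0.22 to -0.04 for sult and -0.17 to -0.10 for gst genes. The uncalled genes sult4a1 and ugt8, near 0, changed sign. sult4a1 was at 0.0092 without the control of clutch 1, in a range of -0.14 to 0.0092 over the libraries and clutches left out. ugt8 was at 0.022 with array weights, 0.052 without the control of clutch 1, and 0.015 and 0.0044 without clutch 1 and clutch 2, with or without the block, in a range of -0.11 to 0.052. Scaling moved the median of all genes by less than 0.1 log2 units. With the block, 188 alternatives were run for the named members, counted over genes, with a call lost in 22 and gained in 1. Only the 7 called members could lose a call. Each of them had 10 alternatives and kept the call in 4 (ugt1a1) to 9 (ugt1a7 and sult1st2). The cause of these changes was not tested. Depth is unknown, so how far it limits small differences of low genes cannot be given.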
